A study of Mus musculus with 5 samples.

Results

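The 6 Iroquois genes (Irx1 to Irx6) were examined in H3K27me3 ChIP-Seq peak lists of mouse embryonic fibroblasts (MEFs). The members were taken by name from the GENCODE vM1 annotation of the mm9 genome. All 6 were found among 22350 protein-coding genes of chromosomes 1 to 19 and X. The cells came from an embryo with a floxed Eed gene, which encodes a PRC2 subunit, and this allele was shared by all lines. Lentivirus with an EF1a promoter was used for stable expression of H3.3 K27R, H3.3 K27M or human EZHIP, transduced cells were selected with puromycin, and each line gave 1 library. The H3.3 K27R line, in which arginine replaces lysine 27, was the reference, because H3.3 K27M and EZHIP inhibit PRC2. The series held 5 samples, and the parental Control (EED floxed) and the EED deletion line, a single clone, were not analysed here.

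The deposited lists gave peak positions without read counts or scores, so that sequencing depth was unknown. There were no replicates, so that no difference between lines could be tested and all values below describe these libraries. The lists held 12845 peaks in K27R, 3736 in K27M and 4992 in EZHIP. Of 15 marker genes found by name, none of the 7 fibroblast genes (Col1a1, Col1a2, Col3a1, Pdgfrb, Thy1, Vim and Fn1) had a start site in a K27R peak. Of the 8 markers of other cell types, 5 did, namely Cdh5 and Kdr of endothelium, Epcam and Cdh1 of epithelium, and Sox2 of neural cells. Those of Pecam1, Ptprc and Tubb3 lay outside the K27R peaks. The share over all protein-coding genes was 30.1%, against which counts of so few genes say little.

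Iroquois proteins are homeodomain transcription factors of the TALE class that pattern the embryo. In mammals the genes lie in clusters of 3 that arose by duplication. The IrxA cluster holds Irx1, Irx2 and Irx4, and the IrxB cluster holds Irx3, Irx5 and Irx6. Genes at the same position of the clusters are paralogues, which pairs Irx1 with Irx3, Irx2 with Irx5 and Irx4 with Irx6. The genes are separated by long stretches with few other genes, which carry regulatory elements. H3K27me3, the product of PRC2, marks developmental genes of this kind where they are silent, often from CpG islands that recruit the complex, and spreads from there into broad domains.

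The IrxA cluster spanned 1311.4 kb of chromosome 13 from the end of Irx1 to the end of Irx4 (72095680 to 73407068, mm9). The IrxB cluster spanned 882.43 kb of chromosome 8 from the end of Irx3 to the end of Irx6 (94322428 to 95204855). Neither span held an unsequenced base. The 6 genes are short, from 3.13 kb in Irx3 to 9.12 kb in Irx4, and their bodies left 1291.4 kb of the IrxA span and 868.98 kb of the IrxB span as intergenic length.

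The sequences below show how the starts of the genes differed in CG dinucleotides, the feature that defines a CpG island. Each is the 250 bases upstream of the annotated start (5′ to 3′ on the strand of the gene, mm9) with every CG in capitals. CG reads the same on both strands and was found in 92.5% of 22345 upstream sequences of protein-coding genes, with a median of 8 (quartiles 3 and 18). Irx2 and Irx5 are shown as examples of starts in no EZHIP peak, and Irx4 and Irx6 as examples of starts in a peak of every list. They were picked by these outcomes. Irx1, also in no EZHIP peak, and Irx3, also in a peak of every list, are not shown. The window ends at the start and so leaves out an island that begins 14 bp inside Irx6.
Irx2, chr13:72765995-72766244, plus strand: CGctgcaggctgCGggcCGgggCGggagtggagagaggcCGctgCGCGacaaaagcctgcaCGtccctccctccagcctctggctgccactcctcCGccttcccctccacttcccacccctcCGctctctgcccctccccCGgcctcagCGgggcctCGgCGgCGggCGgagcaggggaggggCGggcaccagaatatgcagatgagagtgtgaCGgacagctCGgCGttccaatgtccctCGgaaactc
Irx5, chr8:94881445-94881694, plus strand: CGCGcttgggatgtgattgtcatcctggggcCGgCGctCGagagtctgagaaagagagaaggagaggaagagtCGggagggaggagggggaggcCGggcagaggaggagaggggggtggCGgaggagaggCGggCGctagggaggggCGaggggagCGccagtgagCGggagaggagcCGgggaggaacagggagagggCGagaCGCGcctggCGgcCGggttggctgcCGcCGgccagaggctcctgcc
Irx4, chr13:73397695-73397944, plus strand: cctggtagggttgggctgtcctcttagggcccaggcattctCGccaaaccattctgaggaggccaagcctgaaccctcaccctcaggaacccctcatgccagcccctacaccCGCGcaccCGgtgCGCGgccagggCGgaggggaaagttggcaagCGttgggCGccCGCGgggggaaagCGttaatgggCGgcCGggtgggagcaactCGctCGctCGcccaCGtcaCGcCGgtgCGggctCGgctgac
Irx6, chr8:95197938-95198187, plus strand: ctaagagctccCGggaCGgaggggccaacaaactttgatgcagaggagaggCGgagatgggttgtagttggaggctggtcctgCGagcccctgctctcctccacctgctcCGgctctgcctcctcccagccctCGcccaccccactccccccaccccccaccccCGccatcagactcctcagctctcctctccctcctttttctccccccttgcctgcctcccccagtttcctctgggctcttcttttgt

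The upstream sequences of Irx2 and Irx5 held 21 CG each, with 70.8% and 71.6% G+C. A count of at least 21 was found upstream of 19% of protein-coding genes. Irx4 held 22 CG with 68.8% G+C. Irx6 held 7 CG with 64.4% G+C. Its ratio of CG observed to CG expected from the base composition was 0.306, below the median of 0.496 over all genes, while the ratios of the other 5 members lay between 0.675 and 0.835. Upstream of Irx1 there were 23 CG and upstream of Irx3 there were 13.

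The start sites were then compared with the peaks to ask which Iroquois promoters were marked in K27R cells and which kept the mark with each inhibitor. The start sites of 5 of the 6 genes lay in K27R peaks, where the share over all protein-coding genes was 30.1%. In K27M cells 4 remained in a peak (Irx3, Irx4, Irx5 and Irx6), against 9.02% of all genes. In EZHIP cells 3 remained (Irx3, Irx4 and Irx6), against 7.73% of all genes. The same 3 were in peaks of both inhibitor lists, where 6.6% of all genes were. Of the genes whose start lay in a K27R peak, 29.9% kept it in K27M and 25.6% in EZHIP.

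**Figure D1:**
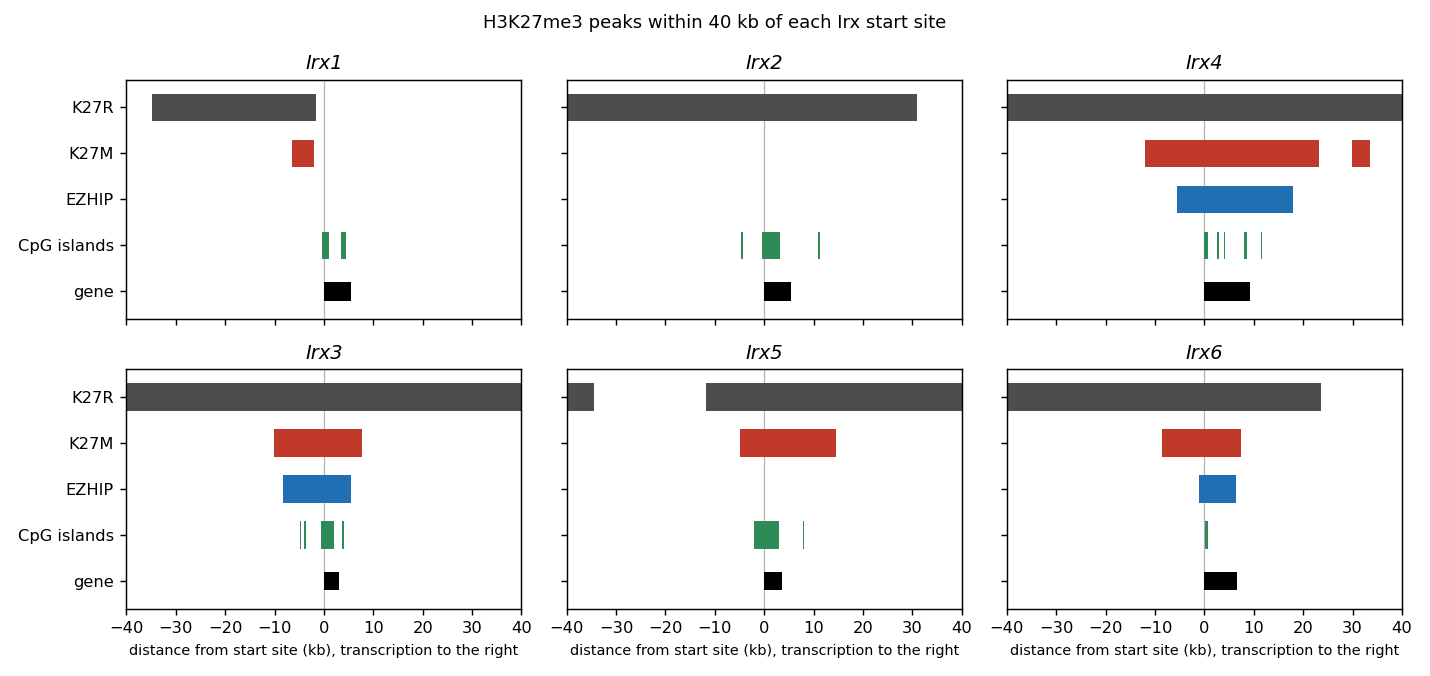
H3K27me3 peaks of the K27R, K27M and EZHIP lists (bars, 1 library each), CpG islands and gene bodies, plotted by distance from the start site of each Irx gene in kb with transcription to the right. The upper row is IrxA and the lower row IrxB, with paralogues in the same column. Peaks of both inhibitors cover the starts of Irx3, Irx4 and Irx6, a K27M peak alone covers that of Irx5, and neither covers those of Irx1 and Irx2.

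Irx4, a factor of the ventricular heart muscle (ENSMUSG00000021604.7, chromosome 13, 73397945 to 73407068, plus strand), kept the widest residual peaks of the family. Its start lay in a K27R region of 178.4 kb (73273001 to 73451400). The K27M peak was 35.4 kb wide (73385801 to 73421200), which was 5.04-fold narrower. The EZHIP peak was 23.4 kb wide (73392401 to 73415800) and 7.62-fold narrower than the K27R region. In both inhibitor lists the peak covered 100% of the gene and reached farther downstream than upstream of the start. It extended 12.1 kb upstream and 23.3 kb downstream in K27M, and 5.54 kb upstream and 17.9 kb downstream in EZHIP. A further K27M peak of 3.6 kb lay beyond the gene (73427801 to 73431400), with no EZHIP peak over it.

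Irx6, the paralogue of Irx4 in IrxB and a factor of retinal bipolar cells (ENSMUSG00000031738.7, chromosome 8, 95198188 to 95204855, plus strand), also kept a peak in both lists. The K27R region spanned 103.6 kb (95118201 to 95221800), the K27M peak 16 kb (95189601 to 95205600) and the EZHIP peak 7.6 kb (95197001 to 95204600). The EZHIP peak was 2.11-fold narrower than the K27M peak, and most of the difference lay upstream of the gene. The K27M peak began 8.59 kb upstream of the start and the EZHIP peak 1.19 kb upstream. Downstream of the start they reached 7.41 kb and 6.41 kb, so that the EZHIP peak ended inside the last part of the gene and covered 96.2% of its body.

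Irx3, which acts in neural tube, limb and heart conduction system (ENSMUSG00000031734.8, chromosome 8, 94322428 to 94325553, minus strand), lay in the widest K27R region of either cluster, 278.8 kb (94199401 to 94478200). Its K27M peak spanned 17.8 kb (94317801 to 94335600) and its EZHIP peak 13.8 kb (94320001 to 94333800). These were 15.7-fold and 20.2-fold narrower than the K27R region, and the inhibitor lists differed least here, by 1.29-fold. The peaks of both lists also held the start of D230002A01Rik, a long non-coding RNA that overlaps Irx3 on the opposite strand. Peak positions carry no strand, so that the mark over Irx3 and over this RNA cannot be told apart.

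For Irx3, Irx4 and Irx6 the EZHIP peak lay wholly inside the K27M peak. It was shorter by 2.2 kb on the left and 1.8 kb on the right at Irx3, by 6.6 kb and 5.4 kb at Irx4, and by 7.4 kb and 1 kb at Irx6, left being the lower coordinate. Among all peaks with a protein-coding start, the median width was 10 kb in K27M (quartiles 5.6 and 20.8 kb; 1717 peaks) and 8 kb in EZHIP (quartiles 5 and 13.8 kb; 1567 peaks). The 4 K27M peaks at Iroquois starts, from 16 to 35.4 kb wide, all exceeded the K27M median. The EZHIP peaks lay above the EZHIP median at Irx3 and Irx4 and below it at Irx6.

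Irx5, which acts with Irx3 in heart and limb (ENSMUSG00000031737.8, chromosome 8, 94881695 to 94885351, plus strand), differed between the inhibitor lists. Its start lay in a K27R region of 160 kb (94870001 to 95030000). K27M cells kept a peak of 19.4 kb over the whole gene (94876801 to 94896200). EZHIP cells had no peak anywhere in this K27R region, and the nearest EZHIP peak was the one at Irx6, 315.3 kb from the Irx5 start. The K27M peak also held the start of 4933436C20Rik, a gene transcribed away from Irx5. Of the genes with a start in a K27R peak, 7.94% were in a K27M peak and in no EZHIP peak. This share includes genes of chromosome X, and it was not computed for autosomes alone, where the clusters lie. The width of the K27M peak was also compared, with a cutoff at the Irx5 peak itself that was chosen after its values were seen. Of 1646 autosomal K27M peaks with a protein-coding start, 260 (15.8%) overlapped no EZHIP peak. Of the 437 that were at least as wide as the one at Irx5, 9 (2.06%) overlapped none, the Irx5 peak among them. Wider peaks have more room to overlap a peak of another list, and how much of the fall came from this was not tested.

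Irx2, the IrxA paralogue of Irx5 (ENSMUSG00000001504.8, chromosome 13, 72766245 to 72771644, plus strand), was in a K27R region of 127.4 kb (72669801 to 72797200) that kept no peak in K27M or EZHIP. The nearest K27M peak lay 185.4 kb away and the nearest EZHIP peak 187 kb away. Among the genes with a start in a K27R peak, 66.5% were in neither inhibitor list. By this share Irx2 followed the more common course and the other 4 marked members did not. Its start lay under an island, however, and of such genes 52.1% were kept in K27M and 44% in EZHIP.

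Irx1, a factor of lung and kidney development (ENSMUSG00000060969.7, chromosome 13, 72095680 to 72101171, minus strand), had no peak over its start or body in any list. A K27R region of 33.2 kb (72102801 to 72136000) began 1.63 kb upstream of the start. Within it K27M cells kept a peak of 4.4 kb (72103201 to 72107600), 2.03 kb upstream of the start. EZHIP cells had no peak within 852 kb of the start. Irx1 counted as marked in K27R and K27M when a start within 5000 bp of a peak was accepted, which gave 6 of 6 genes in K27R, 5 in K27M and 3 in EZHIP.

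The spans were next measured as a whole, since the intergenic stretches made up most of their length. K27R peaks covered 57.6% of the IrxA span with 17 peaks and 84.9% of the IrxB span with 8 peaks, where 20.1% of all autosomes was covered. K27M peaks covered 2.26% of IrxA (29.67 kb in 3 peaks) and 6.35% of IrxB (56.03 kb in 5 peaks). EZHIP peaks covered 1.3% of IrxA (17.07 kb in 2 peaks) and 2.15% of IrxB (18.97 kb in 2 peaks). The shares of all autosomes were 1.72% in K27M and 1.46% in EZHIP, so that IrxA lay near these in both lists, and below in EZHIP, while IrxB lay above them. Relative to K27R, covered length was 96.1% less in K27M and 97.7% less in EZHIP over IrxA. Over IrxB it was 92.5% less in K27M and 97.5% less in EZHIP. On all autosomes the lengths were 91.5% and 92.7% less. K27M thus kept 2.95 times as much length as EZHIP over IrxB and 1.74 times as much over IrxA.

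**Figure D2:**
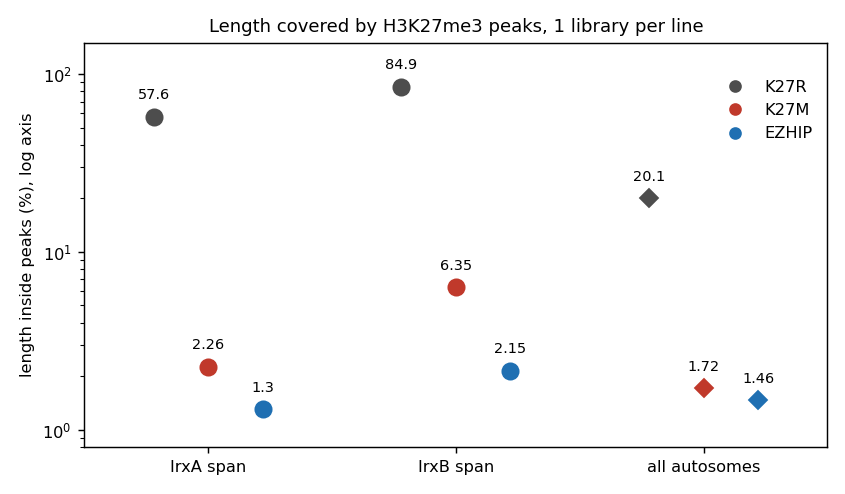
Share of length inside H3K27me3 peaks (%, log axis) for the IrxA span, the IrxB span (circles) and all autosomes (diamonds) in the K27R, K27M and EZHIP lists, 1 library each, with the value printed above each point. K27R cover was 57.6% and 84.9% over the clusters against 20.1% of the autosomes, while K27M values were 2.26% and 6.35% against 1.72%, and EZHIP values 1.3% and 2.15% against 1.46%.

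Cover in K27R cells was uneven along the clusters. Between Irx1 and Irx2 (665.1 kb) K27R peaks covered 49.2%, and the longest stretch without a peak, 258 kb, lay here (72168601 to 72426600). Between Irx2 and Irx4 (626.3 kb) they covered 65.9%. In IrxB, 79.6% of the 556.1 kb between Irx3 and Irx5 and 93.7% of the 312.8 kb between Irx5 and Irx6 were covered, and the longest gap was 46.4 kb.

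Most of the intergenic length in K27R peaks lay outside the peaks of either inhibitor list. Of the intergenic length of IrxA, K27R covered 57.3%, K27M 1.59% and EZHIP 0.615%. With peaks of at least 5000 bp alone, the IrxA value was 0.94% in K27M. Of the intergenic length of IrxB, K27R covered 84.7%, K27M 4.9% and EZHIP 1.09%. With the bodies of D230002A01Rik and the other annotated genes also removed, the EZHIP value was 0.426%. Most of the residual length belonged to the flanks of promoter peaks. In IrxB all of the EZHIP length, 9.434 kb, lay in the peaks at Irx3 and Irx6. In IrxA the upstream flank of the Irx4 peak made up 12.1 kb of 20.54 kb in K27M and 5.54 kb of 7.944 kb in EZHIP. Between Irx1 and Irx2 the EZHIP list had no peak and the K27M list only the one near Irx1. A K27R region of 210 kb between Irx3 and Irx5 (94637201 to 94847200) held no annotated gene and no island, and it was the widest in either cluster to overlap no residual peak. Of the 25 K27R regions that overlapped the spans, 6 held a K27M peak, 4 held an EZHIP peak, and 19 held neither. These regions were from 1.2 to 278.8 kb wide, and 20 held no island. The same shares over all K27R regions of any width were not computed, so that the counts only describe the spans.

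**Figure D3:**
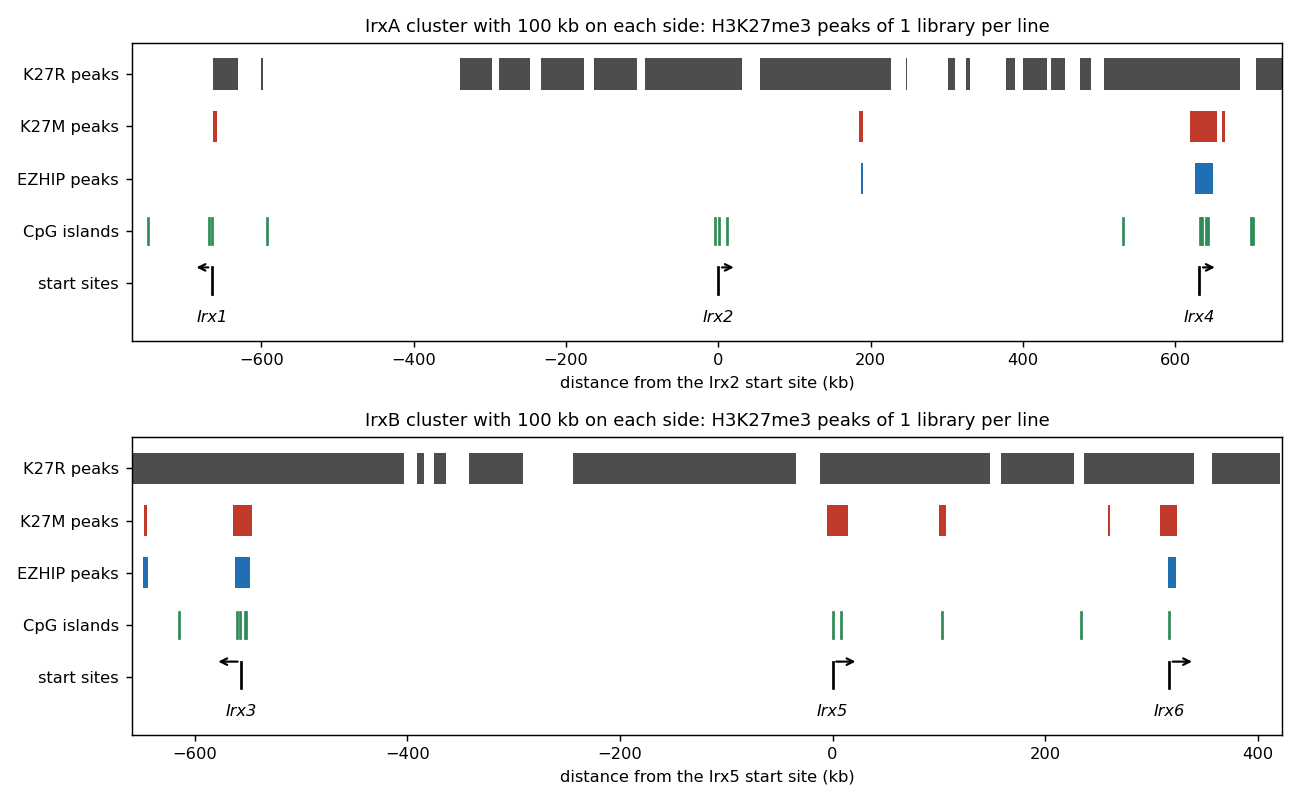
Map of the IrxA and IrxB spans with 100 kb on each side, showing peaks of each list (bars, 1 library each), CpG islands (ticks) and start sites with their direction, by distance in kb from the Irx2 and Irx5 starts. K27R peaks fill 57.6% and 84.9% of the spans, while the residual peaks are few, with 3 K27M and 2 EZHIP peaks in IrxA and 5 and 2 in IrxB.

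Residual cover was also compared with that of other broad domains. There were 1310 autosomal K27R regions of at least 100 kb, of which 63.4% held a K27M peak and 70.3% an EZHIP peak. Of the 7 such regions over the Iroquois clusters, 5 held a K27M peak and 4 an EZHIP peak. Over the autosomal regions the median share still covered was 3.57% in K27M (quartiles 0 and 13.8%) and 3.83% in EZHIP (quartiles 0 and 12.2%). The region at Irx4 kept 21.9% in K27M and 13.1% in EZHIP, above both upper quartiles. The region at Irx6 kept 17% and 7.34%, the region at Irx3 7.53% and 6.46%, and the region at Irx5 16.2% and 0%. The remaining 3 lay below both medians, with 2.33% and 1.4% in the 171.8 kb region between Irx2 and Irx4, and 0% in both lists in the Irx2 region and in the 210 kb region. Over all 7 the median was 7.53% in K27M, above the autosomal one, and 1.4% in EZHIP, below it.

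Residual peaks of the spans were then sorted by whether they held an Iroquois start. Of 8 K27M peaks in the spans 4 held no member start, and of 4 EZHIP peaks 1 held none. One of those K27M peaks was that 2.03 kb upstream of Irx1. In the whole lists, 1717 of 3736 K27M peaks and 1567 of 4992 EZHIP peaks held a coding start, so that the K27M count was near the general share. All residual peaks of the spans lay wholly inside K27R regions, and all 4 EZHIP peaks lay wholly inside K27M peaks. Just outside the spans this did not hold. An EZHIP peak on the Irx3 side (94233601 to 94237800) lay 76.2% inside a K27M peak. A K27R region of 99.8 kb past Irx4 held 2 kb of EZHIP peak and no K27M peak. Of 6735 genes with a start in a K27R peak, 248 were in an EZHIP peak and in no K27M peak. Within the spans, the single intergenic site kept in both lists was between Irx2 and Irx4, with a K27M peak of 4 kb (72951601 to 72955600) and an EZHIP peak of 2.4 kb (72953201 to 72955600). It lay in a K27R region of 171.8 kb with no annotated gene and no CpG island. The 300 bases with the most CG in the shared peak (plus strand, CG in capitals) are shown because the mark was kept here without an island.
chr13:72953833-72954132: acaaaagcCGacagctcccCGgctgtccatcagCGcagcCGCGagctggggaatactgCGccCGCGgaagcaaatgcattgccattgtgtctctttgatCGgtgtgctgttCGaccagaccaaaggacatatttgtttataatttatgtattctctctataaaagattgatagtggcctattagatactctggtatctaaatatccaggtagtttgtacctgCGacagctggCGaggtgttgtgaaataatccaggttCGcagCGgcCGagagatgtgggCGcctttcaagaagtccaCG

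This stretch held 17 CG with an observed to expected ratio of 0.948. Its G+C content was 49%, where an island required 50%. The stretch was picked for its CG count and not by the island finder, so that why no island was called here was not tested. The other 2 intergenic sites of IrxB were in K27M alone. The wider, of 6.6 kb (94982201 to 94988800), lay 100.5 kb downstream of Irx5 over an island of 783 bp, and the other, of 1.6 kb (95140801 to 95142400), lay 55.79 kb upstream of Irx6 without one. Outside the IrxB span, both lists had a peak 88.55 kb (K27M, 3.2 kb wide) and 87.75 kb (EZHIP, 4.2 kb wide) from Irx3, on the side of Fto and without an island. Fto itself, whose introns hold distant enhancers of Irx3, had no peak over its body in any list.

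CpG islands of the spans were assigned to the peaks because PRC2 is recruited to them. Of 19 islands, 15 lay in K27R peaks, 11 in K27M peaks and 8 in EZHIP peaks, where 25.2%, 11.4% and 9.65% of all 27078 islands did. These shares stand for 6823, 3100 and 2612 islands, so that relative to K27R the contrast was smaller. The 8 islands kept in every list were at Irx3, Irx4 and Irx6, 3 were in K27R and K27M peaks, 4 in K27R peaks alone and 4 in no peak. Those 8 shared 3 EZHIP peaks and are not independent. Within 10 kb of a member start, 10 of 14 islands were in K27M peaks and 8 in EZHIP peaks, for which no share over all islands was computed. Among the 5 farther islands, 1 was in a K27M peak and none in an EZHIP peak.

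**Figure D4:**
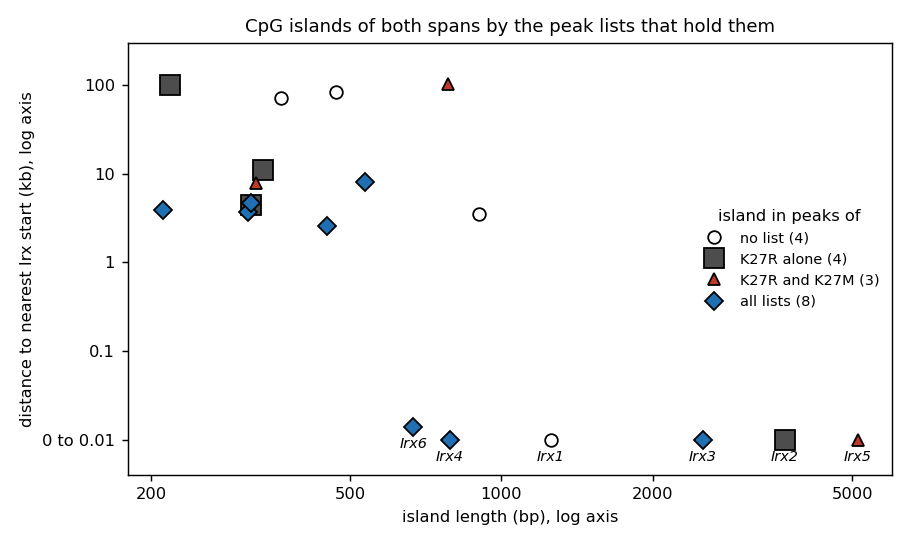
The 19 CpG islands of both spans by length (bp, log axis) and distance to the nearest Irx start (kb, log axis; overlapping islands are drawn at 0.01), with symbols for the lists whose peaks hold them and the nearest island of each gene labelled. The islands of 3674 bp at Irx2 and 5129 bp at Irx5 are the longest and are absent from the EZHIP list, while those of 667 bp at Irx6 and 789 bp at Irx4 are in all lists.

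Among the Iroquois genes, island length did not order retention. The longest island, 5129 bp over the Irx5 start (94879597 to 94884725) with 421 CG, was in K27M peaks and in no EZHIP peak. The next, 3674 bp over the Irx2 start (72765766 to 72769439) with 297 CG, was in neither. The island at Irx3 was 2517 bp and that at Irx4 789 bp, and the island of 667 bp at Irx6 began 14 bp inside the gene. These 3 were kept in both lists. At Irx1 an island of 1253 bp over the start and another of 902 bp in the gene lay outside the peaks of every list.

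Over all genes with a start in a K27R peak, those with an island over the start were retained more often, with 52.1% in K27M and 44% in EZHIP. Without an island these shares were 17.8% and 15.6%. Irx6 was kept in both and fell in this second class only because its island of 667 bp began 14 bp past the start. An island of at least 3 kb, a length chosen after the values were seen, lay over the start of 45 such genes, of which 80% were kept in K27M and 60% in EZHIP. Irx2 and Irx5 belonged to these 45, so that Irx2 was among the minority in both lists and Irx5 among the minority in EZHIP.

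Genes around the clusters were examined to see where the K27R peaks ended. On the Irx4 side, the K27R region of Irx4 ended at 73451400. The starts of Ndufs6 and Mrpl36, genes of mitochondrial respiration and translation, lay outside all peaks. The K27R peak nearest to them, at 6.811 kb and 4.344 kb, was a further region of 99.8 kb (73472801 to 73572600) on the side away from Irx4. On the Irx1 side the next coding genes, Adamts16 and 8030423J24Rik, had their starts in K27R peaks and in no residual peak. These genes are distant, the nearer one ending at 71023381 where the IrxA span begins at 72095680. On the Irx3 side, the K27R region of Irx3 began at 94199401, just past the end of Fto at 94192338. No K27R peak covered the bodies of Fto or Rpgrip1l. The K27R peak nearest to their starts, at 99.83 kb and 99.56 kb, lay on the side away from Irx3. On the Irx6 side, the predicted gene Gm3272 lay in a K27R peak alone and Gm17310 in none. Within the spans, Rpl9-ps4 lay between K27R peaks and a U6 small nuclear RNA gene in a K27R peak alone.

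Other homeodomain genes of the TALE class were looked up as relatives of the Iroquois genes. Of 12 (Mkx, 3 Meis, 4 Pbx, 2 Pknox and 2 Tgif genes), the start of Meis3 alone lay in a K27R peak, and none lay in a K27M or EZHIP peak. Over all coding genes the shares were 30.1%, 9.02% and 7.73%, at which a count of 0 among 12 genes says little. Several of these encode partners of Hox and other homeodomain proteins.

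The share of the 100 kb around each start inside peaks gave a profile over the 3 lists for each gene. For Irx4 the K27R value was 100%, the K27M value 39% and the EZHIP value 23.4%, and for Irx3 these were 100%, 17.8% and 13.8%. For Irx6 it was 83.4%, 16% and 7.6%, for Irx5 77.2%, 19.4% and 0%, for Irx2 81%, 0% and 0%, and for Irx1 33.2%, 4.4% and 0%. The members of IrxA thus ranged more widely than those of IrxB in K27R and in both inhibitor lists. By distance over the 3 values, the coding genes nearest to the IrxA mean (71.4%, 14.5% and 7.8%) were Gm5868, Rtn4r and C030048H21Rik, at 0.697 to 2.08 percentage points. Those nearest to the IrxB mean (86.9%, 17.7% and 7.13%) were 1810013D10Rik, Dgki and Podxl, at 2.63 to 3.37 points.

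The lists differed in how closely neighbouring peaks were left apart, with neighbours never closer than 5200 bp in the K27M list against 1200 bp in the EZHIP list, while some K27R regions adjoined with a gap of 0 bp. The part of this in the peak widths and region counts was not tested. Merging peaks up to 10000 bp apart in every list left the counts of Iroquois starts at 5, 4 and 3. It could not have changed them, because no start outside the peaks lay between neighbours that close.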

How the data were processed

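Per the labels, MEFs were crosslinked, chromatin was digested with MNase, and H3K27me3 was immunoprecipitated. By the study's methods and the submitters' processing notes, the authors aligned reads with Bowtie 1.0.0 to mm9 and to the genome of a spiked-in reference, and called broad peaks with MOSAiCS-HMM. For each of the 3 libraries used here 1 list was deposited. Whether the reference reads or a background library entered the calls is not given in the sources used here. The deposited lists hold a chromosome, a start and an end, with no height, score or count, and all positions lie on 200 bp bins. Depth is therefore unknown. Positions are printed counting from 1. The last peak of each of the 20 chromosomes ended inside the mm9 length, and no coordinate was converted.

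Genes were taken from GENCODE vM1 and a start site is the 5′ end of the gene. Shares over all coding genes and all islands include chromosome X unless called autosomal. A span runs from the first to the last base of the 3 genes of a cluster. Overlap means at least 1 bp. Islands were computed from mm9 without masking repeats, by scoring 17 per CG and -1 per other base. Segments were kept when longer than 200 bp, when G+C reached 50%, and when CG exceeded 0.6 of the number expected from C and G content. RefSeq (GRCm38.p6) start sequences of Irx2, Irx3 and Irx4 were matched exactly in mm9. They gave starts 23, 0 and 0 bp from those used, with the same peaks.

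Groups came from the titles of the samples. With 1 library per group no test was made, and values are shown beside those of all coding genes, islands or K27R regions. Named genes are the members, the TALE list, the 2 nearest coding genes on each side of a span, genes inside the spans, the markers, and for each cluster the 3 coding genes over 1 Mb away with the nearest cover profile. Spi1, among 16 marker names, was not found under that name. Members and lists were chosen with earlier results of these data known. Protein sequences were not used here. Alternatives were minimum peak widths, merging of peaks, other start sites, wider spans, other gene bodies and longer islands. The interval and island tools were tested on simulated data. Python 3.11.15, numpy 2.4.6, pandas 2.3.3, scipy 1.17.1, numba 0.67.0 and matplotlib 3.10.9 were used.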

Additional observations from a re-analysis of the deposited data

How the results depend on the processing

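Of 69 values under alternative settings, 52 stayed within the 95% exact binomial interval of the reported cover, counted in 200 bp bins, or within 1.5 times the reported count. The counts of Iroquois starts in peaks were among these under every alternative. Bins of 1 peak are not independent, so that the interval was a yardstick and measures no spread between libraries. The width filters could not change the start counts, because the narrowest peak over a start was 7.6 kb. Merging could not change them either, because no start outside the peaks lay between peaks up to 10000 bp apart. Merging peaks up to 10000 bp apart raised K27R cover to 59.5% of the IrxA span (59.3% of its intergenic length) and 88.2% of the IrxB span (88.1%). Widening the spans by 100000 bp on each side gave K27R cover of 55.1% in IrxA and 86% in IrxB, and in IrxA 3.14% in K27M and 1.71% in EZHIP. With peaks of at least 5000 bp, IrxA cover in K27M fell to 1.62%, and intergenic cover to 0.94% in K27M and 0.429% in EZHIP. Removing the bodies of all annotated genes changed intergenic cover in IrxB to 86.4% in K27R, 4.02% in K27M and 0.426% in EZHIP, because D230002A01Rik and 4933436C20Rik lie there. Of the 9 islands of at least 500 bp, 7 were in K27R, 6 in K27M and 4 in EZHIP peaks. No paired analysis was possible because each group has 1 library. A peak list shows where signal passed the caller's threshold, so that a position outside a peak is not shown to lack H3K27me3.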

Other observations

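The genes beyond the Iroquois clusters are themselves paralogous, and the pair of transporter genes kept a peak in both inhibitor lists; these genes were chosen after their values were seen. Slc6a3, the dopamine transporter gene (chromosome 13, 73674195 to 73716120, plus strand), lies 267.1 kb past the IrxA span. Its start lay in a K27R region of 107.8 kb, a K27M peak of 15.2 kb and an EZHIP peak of 6 kb. Slc6a2, the noradrenaline transporter gene (chromosome 8, 95483978 to 95525566, plus strand), lies 279.1 kb past the IrxB span. Its start lay in a K27R region of 161 kb, a K27M peak of 10 kb and an EZHIP peak of 3.8 kb. The starts of Lpcat1 and Lpcat2, lysophospholipid acyltransferase genes between the transporters and the spans, lay in no peak of any list.

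The other 8 autosomal K27M peaks that held a coding start, were at least as wide as that at Irx5 and overlapped no EZHIP peak included those of Pax3 (38.6 kb), a paired-box factor of neural crest and muscle, of Lhx6 (23.8 kb), a LIM homeodomain factor of interneurons, and of the imprinted gene Grb10 (21 kb). The remaining ones held the starts of A530032D15Rik (46.2 kb), C130026I21Rik (51.4 kb), Sp110 and Sp140 (49.6 kb), Smok2a (44.2 kb), and Dbndd1 and Gas8 (31.2 kb).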
